A study of Mus musculus with 12 samples.

Results

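A set of 10 histone chaperone genes was followed in CT26 tumours: Anp32e, Hirip3, Chaf1a, Chaf1b, Asf1a, Asf1b, Nasp, Hjurp, Ssrp1 and Hira. They were picked by symbol from the 55415 entries of the deposited table, because Hirip3 and Anp32e were already known to be among the clearest decreases after radiation in these same libraries. All 10 passed the filter on low values, an FPKM (fragments per kilobase of exon and per mega count) of at least 1 in at least 3 of 12 libraries, which left 13668 genes. Since radiation chose the genes, every value that sets irradiated against unirradiated tumours is given for them as a description, without a test. The effect of Complex 1 on the same genes, within either level of radiation, was not itself used in the choice and was tested. Its contrasts still share the control and radiation libraries with the radiation contrasts behind the choice, so they are not fully independent of it.

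CT26 is a mouse line from a BALB/c colon carcinoma. The RNA came from tumours of mice given Complex 1 and radiation (the combination), of mice given radiation alone, of mice given Complex 1 alone, and of untreated controls, with 3 libraries each and 12 in all. The series title describes an X-ray activated platinum complex. The labels call the cells WT in every group and give no dose, time, age or strain, nor whether a sampled tumour lay in the irradiated field or each library came from its own animal, so the error terms measure the spread between libraries only.

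Histone chaperones are proteins that bind histones outside nucleosomes, escort them to DNA and help place or remove them. The CAF-1 complex, whose large and middle subunits are Chaf1a and Chaf1b, deposits new H3-H4 behind the replication fork. It receives them from Asf1a or Asf1b, while Nasp keeps a soluble reserve of H3-H4. Hira heads the complex that places the variant H3.3 outside replication, and Hirip3 was named for binding Hira. Anp32e removes the variant H2A.Z from nucleosomes, Hjurp loads the centromeric variant Cenpa, and Ssrp1 is a subunit of FACT, which moves H2A-H2B out of the way of polymerases. Many of these genes are active mainly in dividing cells.

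Promoter windows are shown for Anp32e, Hirip3 and Asf1b, which had the largest differences with radiation. Each window is the 250 bases before the annotated start, on the strand of the gene, from RefSeq promoters in GRCm38.p6, with matches to 4 short motifs in capitals. The motifs were CCAAT (the NF-Y box), TTTGAA (a form of the CHR element of cell cycle promoters), and TTCCCGC and TTGGCGC (E2F-like letters), searched on both strands.

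Anp32e (chr3:95929007-95929256, plus strand): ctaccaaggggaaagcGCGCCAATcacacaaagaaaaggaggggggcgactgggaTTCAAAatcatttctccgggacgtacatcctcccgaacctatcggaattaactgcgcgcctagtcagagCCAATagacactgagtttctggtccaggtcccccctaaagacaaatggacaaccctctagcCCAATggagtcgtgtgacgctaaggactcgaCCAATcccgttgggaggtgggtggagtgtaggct

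Asf1b (chr8:83955444-83955693, plus strand): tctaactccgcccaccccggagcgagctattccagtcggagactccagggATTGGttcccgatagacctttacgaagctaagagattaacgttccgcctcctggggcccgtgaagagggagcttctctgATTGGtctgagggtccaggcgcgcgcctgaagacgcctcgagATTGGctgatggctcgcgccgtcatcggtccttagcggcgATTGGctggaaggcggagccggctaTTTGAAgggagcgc

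Hirip3 (chr7:126861722-126861971, plus strand): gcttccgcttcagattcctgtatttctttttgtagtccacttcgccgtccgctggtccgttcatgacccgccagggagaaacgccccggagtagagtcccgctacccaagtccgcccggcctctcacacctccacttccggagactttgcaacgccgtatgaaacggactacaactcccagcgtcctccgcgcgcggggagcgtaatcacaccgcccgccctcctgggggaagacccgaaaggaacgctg

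The Anp32e window held 4 copies of CCAAT, 1 of TTTGAA on the opposite strand (TTCAAA), and 1 TTGGCGC on the opposite strand (GCGCCAA) that overlaps the first CCAAT. The Asf1b window also held 4 copies of CCAAT, all on the opposite strand (ATTGG), and 1 TTTGAA that ends close to the start. The Hirip3 window held none of these letters. Over the windows of all 10 genes, 6 genes had a CCAAT, against 33.8% of 32817 promoters of the same length. TTTGAA was found in 4 of the 10 genes, against 16% of all promoters, TTCCCGC in 3, against 3.82%, and TTGGCGC in 1, against 1.97%. A match describes the letters only and says nothing of binding.

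Each library held 15.6 to 19.1 M counts (mega counts). Control replicate 2 stood apart from the other 11 libraries in its sex-linked genes, with 0.02 FPKM of Xist against 9.2 to 14.16 FPKM and with 28 counts over Ddx3y, Kdm5d, Uty and Eif2s3y against at most 1. Of 7 epithelial markers, Krt8, Krt19, Epcam and Cldn7 were under 1 FPKM in every library, and Cdh1 was at most 1.05 FPKM. Krt20, a keratin of the intestinal lining, had 83.77 to 103.02 FPKM in combination and 80.78 to 136.34 FPKM in radiation tumours, against 66.56 to 145.54 FPKM with Complex 1 and 114.64 to 148.24 FPKM in controls. Krt18 had 2.9 to 4.1 FPKM in combination and 3.45 to 4.77 FPKM in radiation tumours, against 2.81 to 6.41 FPKM with Complex 1 and 4.83 to 7.72 FPKM in controls. Krt18 fell with the combination against control (log2 change -0.87 ± 0.27, edgeR adjusted p = 0.038), and neither keratin passed in the combination against Complex 1 or in radiation against control. Their part in the chaperone values was not tested. Some immune transcripts moved with radiation. The summed level of 8 macrophage markers was 2076 to 2202 FPKM in combination tumours and 2064 to 2242 FPKM in radiation tumours, against 1373 to 1521 FPKM with Complex 1 and 981 to 1169 FPKM in controls. Of the 8, 6 rose with radiation against control, beside 7.39% of all tested genes. In the combination against Complex 1, 5 of the 8 rose, beside 4.73%. None of the 8 is at 0 in any library. The summed level of 6 NK and cytotoxic markers was 194 to 232 FPKM in combination and 110 to 164 FPKM in radiation tumours. It was 43.5 to 111 FPKM with Complex 1 and 28.6 to 64.7 FPKM in controls. Of the 5 tested, 4 rose in each contrast, beside the same shares of all tested genes. Of 7 T cell markers, 1 rose in radiation against control and 0 in the combination against Complex 1. For 5 tested neutrophil markers these counts were 1 and 2, and for 3 pan-leukocyte markers 2 and 2. Only 1 dendritic cell marker was tested, with counts of 1 and 0, and no B cell marker was tested. In these bulk samples fewer cells of a type and less RNA per cell cannot be told apart, and the part of the immune transcripts in the chaperone values was not tested.

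The chaperones spanned a wide range of abundance. Per exon length, Ssrp1 was the most abundant, with a mean of 101 FPKM over the 12 libraries, followed by Anp32e at 68.9 FPKM, Hjurp at 36.8 FPKM, Asf1b at 24.4 FPKM and Hirip3 at 15.2 FPKM. Nasp averaged 10 FPKM and Chaf1a 8.76 FPKM. Asf1a averaged 6.01 FPKM and Chaf1b 5.8 FPKM. Over the 12 libraries the ranges of the neighbours Asf1b and Hirip3, Hirip3 and Nasp, Nasp and Chaf1a, and Asf1a and Chaf1b overlapped, and those of the other neighbours did not. Hira was the least abundant at 3.62 FPKM, and its highest library (4.16 FPKM) lay under the lowest of every other gene of the set. This order is uncertain where sequence is shared. Of the 31-base sequences of Hira, Chaf1a and Asf1a, 43.1%, 50.9% and 44.9% also occur in a neighbour.

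**Figure D1:**
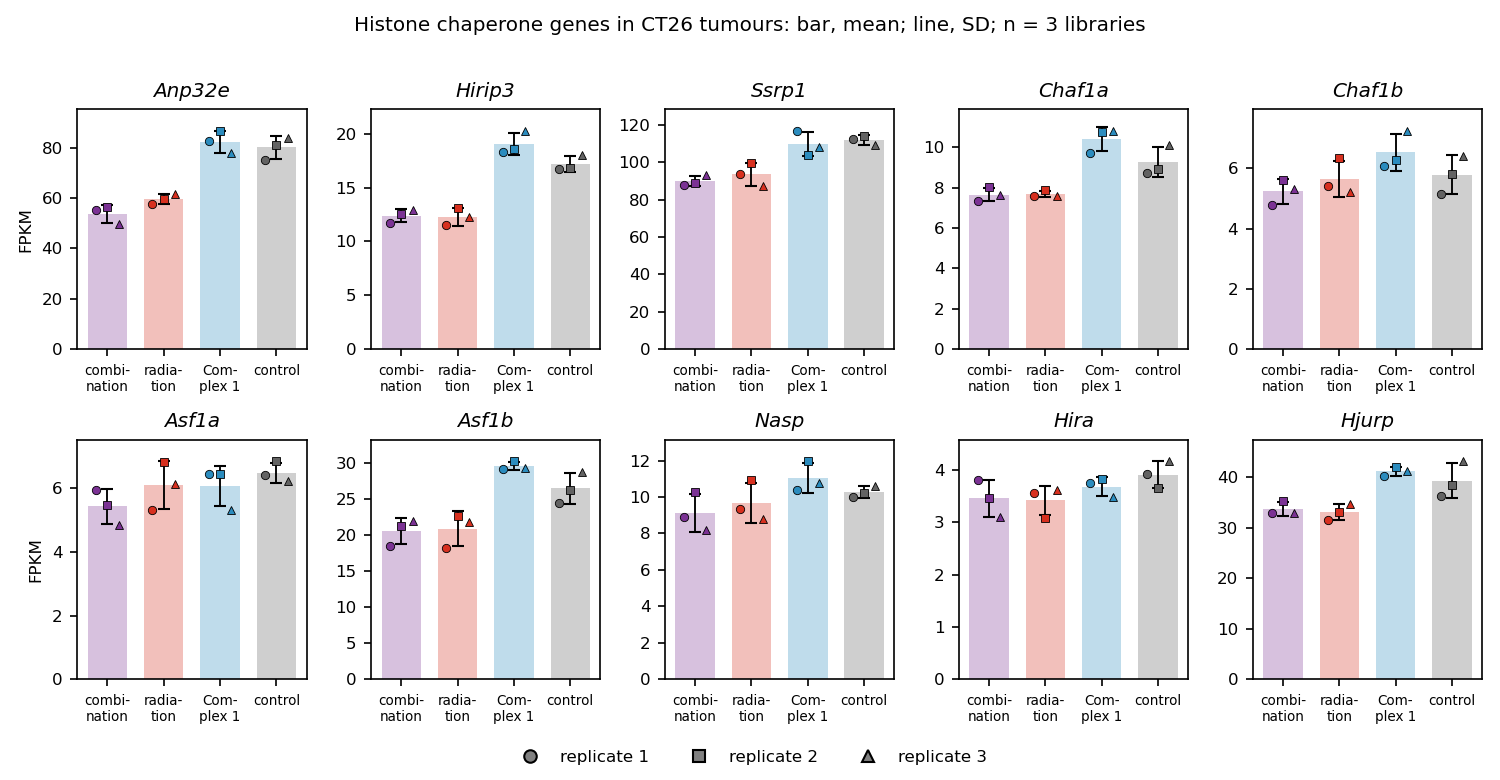
FPKM of the 10 histone chaperone genes in each of the 12 libraries (symbols, by replicate), with bars for the mean and lines for the SD of 3 libraries per group, in the order combination, radiation, Complex 1 and control. Anp32e and Hirip3 separate the irradiated from the unirradiated groups in every library, while Hira, Asf1a, Chaf1b and Nasp overlap between some irradiated and unirradiated libraries.

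Among the chaperones of variant histones, Anp32e had the clearest separation. Its levels were 55.17, 56.25 and 49.66 FPKM in combination tumours and 57.58, 59.6 and 61.56 FPKM in radiation tumours. They were 82.48, 86.49 and 77.75 FPKM in Complex 1 tumours and 75.04, 81.2 and 83.91 FPKM in control tumours. All 6 irradiated tumours lay below all 6 unirradiated ones, and the combination libraries also lay below the radiation ones. The log2 difference was -0.63 ± 0.07 (SE) for the combination against Complex 1 and -0.45 ± 0.07 for radiation against control.

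Hjurp, the Cenpa chaperone, was lower by less. It had 32.92, 35.36 and 32.91 FPKM in combination tumours, 31.57, 33.19 and 34.76 FPKM in radiation tumours, 40.26, 42.05 and 41.19 FPKM with Complex 1, and 36.27, 38.56 and 43.13 FPKM in controls. The irradiated and unirradiated libraries did not overlap, though the highest combination library and the lowest control library were close. The log2 differences were -0.31 ± 0.07 for the combination against Complex 1 and -0.27 ± 0.07 for radiation against control.

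Hirip3 had the largest log2 difference of the set in radiation against control, whereas in the combination against control Anp32e had it (-0.62 ± 0.07, against -0.52 ± 0.07 for Hirip3). It stood at 11.68, 12.58 and 12.88 FPKM in combination tumours and at 11.48, 13.14 and 12.24 FPKM in radiation tumours. The Complex 1 tumours had 18.34, 18.57 and 20.24 FPKM and the controls 16.75, 16.78 and 18.06 FPKM. Both irradiated groups occupied the same range, well under both unirradiated groups, and the Complex 1 libraries lay above every control library. In log2 terms the combination differed from Complex 1 by -0.64 ± 0.07 and radiation from control by -0.51 ± 0.07.

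Hira, the H3.3 chaperone that gave Hirip3 its name, differed less. It had 3.8, 3.46 and 3.1 FPKM in combination tumours, 3.55, 3.09 and 3.61 FPKM in radiation tumours, 3.74, 3.82 and 3.48 FPKM with Complex 1 and 3.92, 3.65 and 4.16 FPKM in controls. The radiation libraries all lay just under the controls, whereas the combination and Complex 1 libraries overlapped. The log2 difference was -0.11 ± 0.10 for the combination against Complex 1 and -0.22 ± 0.10 for radiation against control. The Hirip3 to Hira ratio of FPKM was 3.62 ± 0.541 in combination tumours and 3.63 ± 0.548 in radiation tumours, against 5.19 ± 0.539 with Complex 1 and 4.4 ± 0.171 in controls (SD, n = 3 each).

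In the replication-coupled H3-H4 route, Asf1b had the largest difference. Its levels were 18.49, 21.22 and 21.98 FPKM in combination tumours and 18.18, 22.66 and 21.85 FPKM in radiation tumours, against 29.22, 30.21 and 29.34 FPKM with Complex 1 and 24.51, 26.25 and 28.79 FPKM in controls. No irradiated library reached an unirradiated one. The log2 differences were -0.54 ± 0.09 for the combination against Complex 1 and -0.37 ± 0.09 for radiation against control. Its paralog Asf1a, which carries the same function and also hands H3.3 to the Hira complex, overlapped in the combination against Complex 1 and in radiation against control. Asf1a ranged from 4.85 to 5.95 FPKM in combination tumours and from 5.32 to 6.82 FPKM in radiation tumours, against 5.32 to 6.43 FPKM with Complex 1 and 6.21 to 6.83 FPKM in controls. The log2 differences of Asf1a were -0.18 ± 0.11 for the combination against Complex 1 and -0.12 ± 0.11 for radiation against control. Its combination libraries all lay under its controls, with a log2 difference of -0.31 ± 0.11.

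The CAF-1 subunits showed a similar contrast. Chaf1a had 7.33, 8.01 and 7.64 FPKM in combination tumours, 7.6, 7.88 and 7.59 FPKM in radiation tumours, 9.73, 10.75 and 10.8 FPKM with Complex 1 and 8.73, 8.94 and 10.13 FPKM in controls. Irradiated and unirradiated libraries of Chaf1a did not overlap, and its log2 differences were -0.46 ± 0.07 for the combination against Complex 1 and -0.30 ± 0.07 for radiation against control. Chaf1b had 4.79, 5.61 and 5.32 FPKM in combination tumours and 5.42, 6.33 and 5.2 FPKM in radiation tumours, against 6.07, 6.27 and 7.23 FPKM with Complex 1 and 5.13, 5.82 and 6.41 FPKM in controls. Chaf1b was thus separate between the combination and Complex 1 (log2 difference -0.34 ± 0.11) and overlapped between radiation and control (-0.06 ± 0.11). Nasp, the H3-H4 reserve, showed the same arrangement, with log2 differences of -0.29 ± 0.09 for the combination against Complex 1 and -0.11 ± 0.09 for radiation against control. Nasp levels were 8.17 to 10.25 FPKM in combination tumours and 8.8 to 10.91 FPKM in radiation tumours, against 10.36 to 11.95 FPKM with Complex 1 and 10.02 to 10.63 FPKM in controls.

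Ssrp1, the FACT subunit, had 87.62, 89.13 and 92.92 FPKM in combination tumours, 93.6, 99.77 and 87.13 FPKM in radiation tumours, 116.63, 104.13 and 108.39 FPKM with Complex 1 and 112.42, 114.08 and 109.26 FPKM in controls. All irradiated libraries were below all unirradiated ones, by a log2 difference of -0.31 ± 0.07 for the combination against Complex 1 and -0.29 ± 0.07 for radiation against control. Supt16, the other FACT subunit and no member of the set, averaged 22.3 ± 1.87 FPKM in combination and 22.6 ± 1.92 FPKM in radiation tumours, against 25.6 ± 0.491 FPKM with Complex 1 and 25.2 ± 1.31 FPKM in controls (SD, n = 3 each). Its log2 changes of -0.22 ± 0.08 for the combination against Complex 1 and -0.19 ± 0.08 for radiation against control did not pass in edgeR's quasi-likelihood test (adjusted p = 0.086 and 0.12). Supt16 fell in the radiation effect averaged with and without Complex 1 (-0.20 ± 0.05, edgeR adjusted p = 0.014) and in the combination against control (-0.23 ± 0.08, adjusted p = 0.049).

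**Figure D2:**
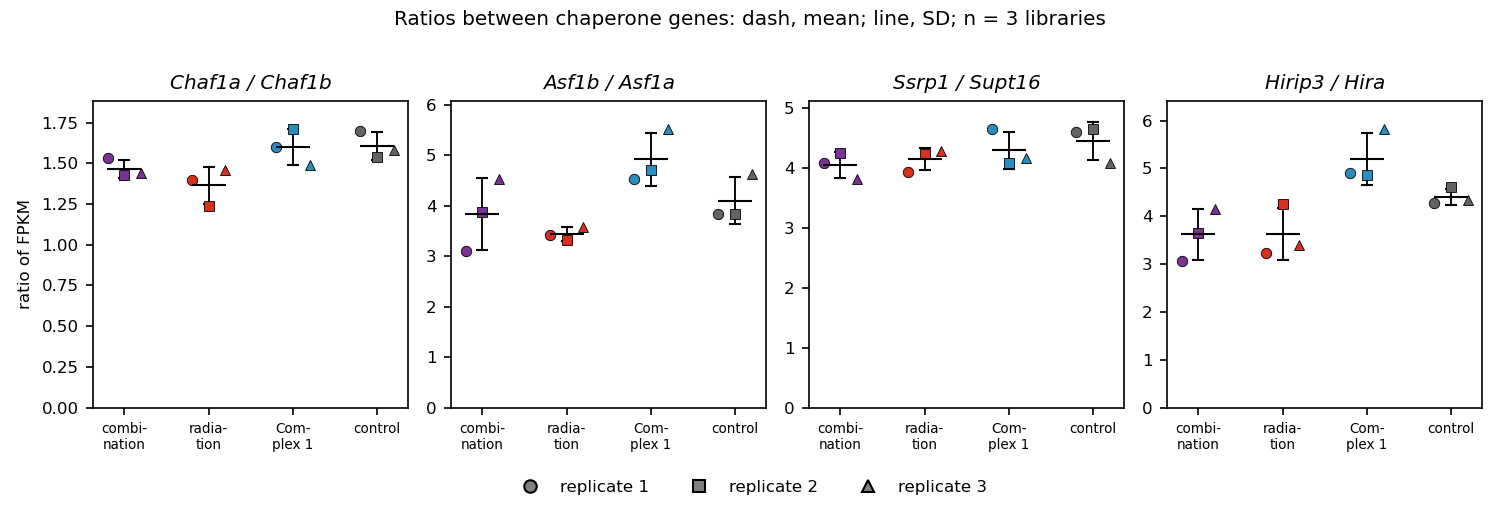
FPKM ratios within pairs of related genes in each library (dots), with the mean and SD of 3 libraries per group and a y axis from 0. The Ssrp1 to Supt16 ratio was 4.05 in combination, 4.15 in radiation, 4.29 in Complex 1 and 4.45 in control tumours, while the Hirip3 to Hira ratio was 3.62 in combination and 5.19 in Complex 1 tumours.

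Ratios within the pairs are given as a description and were not tested. The Chaf1a to Chaf1b ratio of FPKM averaged 1.46 ± 0.0569 in combination and 1.37 ± 0.111 in radiation tumours, against 1.6 ± 0.11 with Complex 1 and 1.61 ± 0.0858 in controls (SD, n = 3 each). The Asf1b to Asf1a ratio averaged 3.84 ± 0.713 in combination and 3.44 ± 0.128 in radiation tumours, against 4.92 ± 0.522 with Complex 1 and 4.1 ± 0.462 in controls. For Asf1b to Asf1a, the combination libraries spread from 3.11 to 4.53, a range that takes in 2 of the 3 controls. For Chaf1a to Chaf1b, the combination libraries (1.43 to 1.53) overlapped those with Complex 1 (1.49 to 1.71). The radiation libraries (1.24 to 1.46) lay under the controls (1.54 to 1.7). A ratio shows unequal change and not which gene moved.

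Over the set, 6 of 10 genes had an adjusted p under 0.05 in the lower direction in radiation against control (Anp32e, Asf1b, Chaf1a, Hirip3, Hjurp and Ssrp1), against 5.86% of all tested genes. The same 6 were counted in the combination against Complex 1, where 5.25% of all tested genes were lower. Over both levels of Complex 1, 7 were counted (the 6 and Nasp), against 13.2% of tested genes, and 6 were counted in the combination against control, against 10%. Because the genes were chosen for these contrasts, the counts are not read as a result. All 10 log2 differences were below 0 in each of these contrasts, with medians of -0.31 for the combination against control, -0.32 for the combination against Complex 1 and -0.28 for radiation against control, beside medians of all tested genes of -0.00678, -0.00391 and -0.00555. The smallest change counted in radiation against control was the -0.27 of Hjurp, and the largest not counted was the -0.22 of Hira. The libraries did not overlap for 7 genes in radiation against control (the 6 and Hira), against 12% of tested genes, and for 8 in the combination against Complex 1 (the 6, Chaf1b and Nasp), against 14%. Radiation against control and the combination against control share the control libraries.

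Radiation against control was also fitted with single libraries left out. Without radiation replicate 1, the log2 differences were -0.47 ± 0.08 for Hirip3 and -0.43 ± 0.08 for Anp32e. They were -0.29 ± 0.08 for Chaf1a and for Ssrp1, -0.28 ± 0.09 for Asf1b and -0.24 ± 0.08 for Hjurp. Hira had -0.25 ± 0.11, Nasp -0.09 ± 0.11, Chaf1b -0.03 ± 0.13 and Asf1a -0.03 ± 0.12. Without control replicate 2, the library that stood apart, Hirip3 had -0.53 ± 0.08, Anp32e -0.44 ± 0.08 and Asf1b -0.38 ± 0.10. Chaf1a then had -0.32 ± 0.08, Hjurp -0.28 ± 0.08 and Ssrp1 -0.27 ± 0.08. Hira had -0.27 ± 0.11, Nasp -0.12 ± 0.11, Asf1a -0.08 ± 0.13 and Chaf1b -0.05 ± 0.13. Within the groups, control replicate 3 held the highest level of its group for 8 of the 10 genes and control replicate 1 the lowest for 7. Radiation replicate 2 was the highest of its group for 7 of 10.

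**Figure D3:**
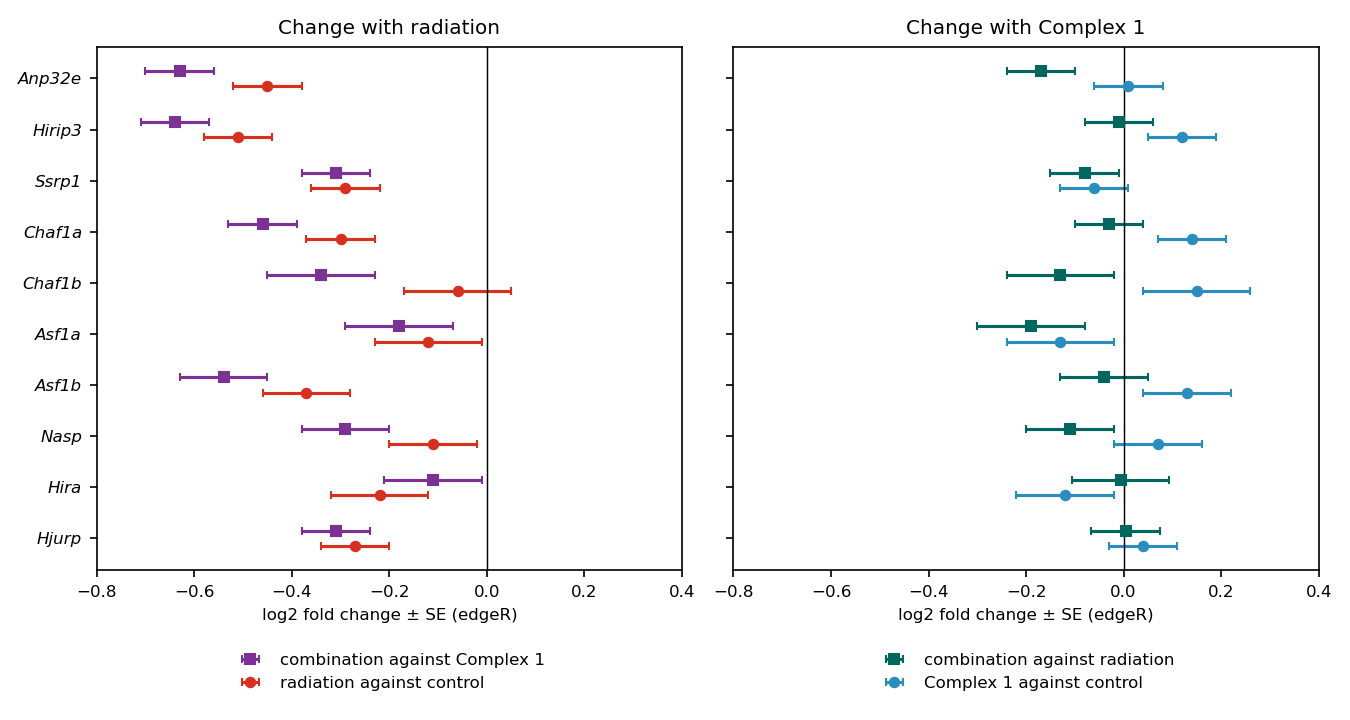
Log2 fold changes (points) ± SE (lines) from edgeR for the 10 genes, with radiation contrasts on the left and Complex 1 contrasts on the right. With radiation the points run from -0.64 to -0.06, and with Complex 1 from -0.19 to 0.15.

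Complex 1, given alone or on top of radiation, moved none of the 10 genes past the threshold. In Complex 1 against control, 0 of 10 passed in edgeR (quasi-likelihood test, Benjamini-Hochberg over 13668 genes), beside 0.812% of all tested genes. At an unadjusted p under 0.05 in edgeR there were 0 of the 10, beside 1706 of the 13668 tested genes. DESeq2 called 0 of the 10, beside 326 of all tested genes. The log2 changes ran from -0.13 for Asf1a to 0.15 for Chaf1b, and the intervals together covered -0.37 to 0.38, or changes of -22.6% to 30.2%. Chaf1a had the smallest p, with a log2 change of 0.14 ± 0.07 and an edgeR adjusted p of 0.409. Hirip3 and Asf1b, with log2 changes of 0.12 ± 0.07 and 0.13 ± 0.09, were higher in all 3 Complex 1 libraries than in all 3 controls, an arrangement found in 11.4% of tested genes.

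In the combination against radiation, 0 of 10 passed, beside 0.651% of all tested genes. DESeq2 called 0 of the 10, beside 185 of all tested genes. At an unadjusted p under 0.05 in edgeR there was 1 of the 10, beside 1411 of the 13668 tested genes. This was Anp32e, also in DESeq2. The level of Anp32e averaged 53.7 ± 3.53 FPKM in combination tumours and 59.6 ± 1.99 FPKM in radiation tumours (SD, n = 3 each). The log2 change of Anp32e was -0.17 ± 0.07 with an interval of -0.32 to -0.02 and an edgeR adjusted p of 0.421, and all 3 combination libraries were below all 3 radiation libraries, as in 6.36% of tested genes. For the other 9 genes the log2 changes ran from -0.19 for Asf1a to 0.0041 for Hjurp, with every interval spanning 0. Beside these values, the summed level of 6 neutrophil markers was 245 to 408 FPKM in combination tumours, against 8.9 to 33.6 FPKM in radiation tumours, with Ly6g under 1 FPKM in every library. Their part in the chaperone values was not tested.

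Averaged over both levels of radiation, the effect of Complex 1 passed in edgeR for 0 of 10 genes, beside 2.77% of all tested genes. At an unadjusted p under 0.05 in edgeR there were 0 of the 10, beside 2421 of the 13668 tested genes. DESeq2 called 0 of the 10, beside 667 of all tested genes. The log2 effects ran from -0.16 for Asf1a to 0.06 for Chaf1a and Hirip3, and the 10 intervals together covered changes of -20.4% to 13.4%. The interaction is the difference between the combination against Complex 1 and radiation against control. Since it is built from the contrasts that chose the genes, it is given for them without a test. The estimates ran from -0.28 ± 0.15 for Chaf1b to 0.11 ± 0.14 for Hira, with -0.18 ± 0.10 for Anp32e and -0.13 ± 0.10 for Hirip3. The 95% interval of Chaf1b was -0.61 to 0.06 and that of Ssrp1, among the narrowest, -0.23 to 0.19. Of all tested genes, 0% were called for the interaction in edgeR, with 600 at an unadjusted p under 0.05, and DESeq2 called 6.

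A list of histone variants was set beside the chaperones, as were other chaperones and the machines that insert H2A.Z. Of 7 variant genes, 4 fell with radiation against control, beside 5.86% of all tested genes, and 4 with the combination against Complex 1, beside 5.25%. The list medians were -0.31 and -0.45. H2az1, the main H2A.Z gene and the histone that Anp32e removes, averaged 147 ± 19.3 FPKM in combination and 144 ± 15.4 FPKM in radiation tumours, against 211 ± 13 FPKM with Complex 1 and 195 ± 9.95 FPKM in controls (SD, n = 3 each). The log2 change of H2az1 was -0.54 ± 0.10 for the combination against Complex 1 (edgeR adjusted p = 0.0056) and -0.47 ± 0.10 for radiation against control (adjusted p = 0.0094). Cenpa, the cargo of Hjurp, averaged 14.8 ± 0.933 FPKM in combination and 15.5 ± 1.12 FPKM in radiation tumours, against 19.9 ± 1.58 FPKM with Complex 1 and 19.9 ± 0.902 FPKM in controls. It fell in both contrasts, by 0.45 and 0.38 on the log2 scale. H2ax, the variant phosphorylated at DNA breaks, also fell with radiation against control, with a log2 change of -0.57 ± 0.11 (edgeR adjusted p = 0.0059). The H3.3 genes did not pass in radiation against control, where H3f3a differed by -0.15 ± 0.10 and H3f3b by -0.23 ± 0.08 on the log2 scale. H3f3b fell in the radiation effect averaged with and without Complex 1 (-0.23 ± 0.05, edgeR adjusted p = 0.0076) and in the combination against control (-0.34 ± 0.08, adjusted p = 0.0067), and H3f3a passed in neither. Neither did Macroh2a1, which averaged 15.8 ± 0.576 FPKM in radiation tumours and 15.6 ± 0.495 FPKM in controls.

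Of the 10 genes of the H2A.Z exchange machinery, 0 rose or fell in the combination against Complex 1 and 1 fell with radiation against control, beside 5.25% and 5.86% of all tested genes lower in those contrasts. Over both levels of Complex 1, 3 of the 10 fell with radiation, beside 13.2% of all tested genes. These were Ruvbl1 (log2 change -0.20 ± 0.04), Ruvbl2 (-0.17 ± 0.05) and Yeats4 (-0.17 ± 0.06), with edgeR adjusted p of 0.004, 0.019 and 0.033. The gene that fell in radiation against control was Ruvbl1, a shared ATPase subunit, with a log2 change of -0.25 ± 0.06 (edgeR adjusted p = 0.015), and the list medians were -0.06 and -0.04 for the combination against Complex 1 and for radiation against control. No list gene of the exchange machinery rose in any of the 8 contrasts.

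Of 29 other histone chaperones and their partners, 7 fell and 1 rose with the combination against Complex 1, and 5 fell and 1 rose with radiation against control. Of all tested genes 4.73% were higher and 5.25% lower in the combination against Complex 1. In radiation against control 7.39% were higher and 5.86% lower. The gene that rose in both was Daxx, which places H3.3 with Atrx. Daxx averaged 22.2 ± 0.921 FPKM in combination and 20.1 ± 1.74 FPKM in radiation tumours, against 13.9 ± 3.11 FPKM with Complex 1 and 13.2 ± 0.393 FPKM in controls, with log2 changes of 0.66 ± 0.12 and 0.57 ± 0.12 for those contrasts. Set and Nap1l1, histone chaperones of the NAP family, fell in both. The log2 changes of Set were -0.34 ± 0.06 for the combination against Complex 1 and -0.26 ± 0.06 for radiation against control, and those of Nap1l1 were -0.38 ± 0.07 and -0.27 ± 0.07. Oip5, a part of the Mis18 complex that prepares centromeres for Hjurp, had the largest decrease in the combination against Complex 1, with a log2 change of -0.82 ± 0.15 (edgeR adjusted p = 0.0061). List medians were -0.18 for the combination against Complex 1 and -0.13 for radiation against control, and 0 of the 29 passed in any Complex 1 contrast.

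Cell cycle genes were lower in the same contrasts as the chaperones. Of 24 proliferation genes, 21 fell with the combination against Complex 1, beside 5.25% of all tested genes. With radiation against control 14 fell, beside 5.86%. Their medians were -0.43 and -0.28, beside -0.32 and -0.28 for the chaperones. Mki67, a marker of cycling cells, averaged 43 ± 3.73 FPKM in combination and 51 ± 6.9 FPKM in radiation tumours, against 65.8 ± 2.6 FPKM with Complex 1 and 65.9 ± 2.85 FPKM in controls. The mean log2 count per mega count of the 10 chaperones, centred per gene over the libraries, was -0.21, -0.15 and -0.24 in combination tumours and -0.19, -0.06 and -0.13 in radiation tumours, against 0.17, 0.19 and 0.18 with Complex 1 and 0.08, 0.14 and 0.21 in controls. The same mean of the 24 proliferation genes was -0.24, -0.13 and -0.27 in combination tumours and -0.23, -0.0061 and -0.18 in radiation tumours, against 0.15, 0.20 and 0.27 with Complex 1 and 0.05, 0.15 and 0.22 in controls. Radiation replicate 2 was the highest irradiated library, and control replicate 1 the lowest unirradiated one, in both. The part of proliferation in the chaperone values was not tested. In the same libraries 12 of 12 p53 target genes rose with the combination against Complex 1, beside 4.73% of all tested genes. With radiation against control 9 of 12 rose, beside 7.39%.

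**Figure D4:**
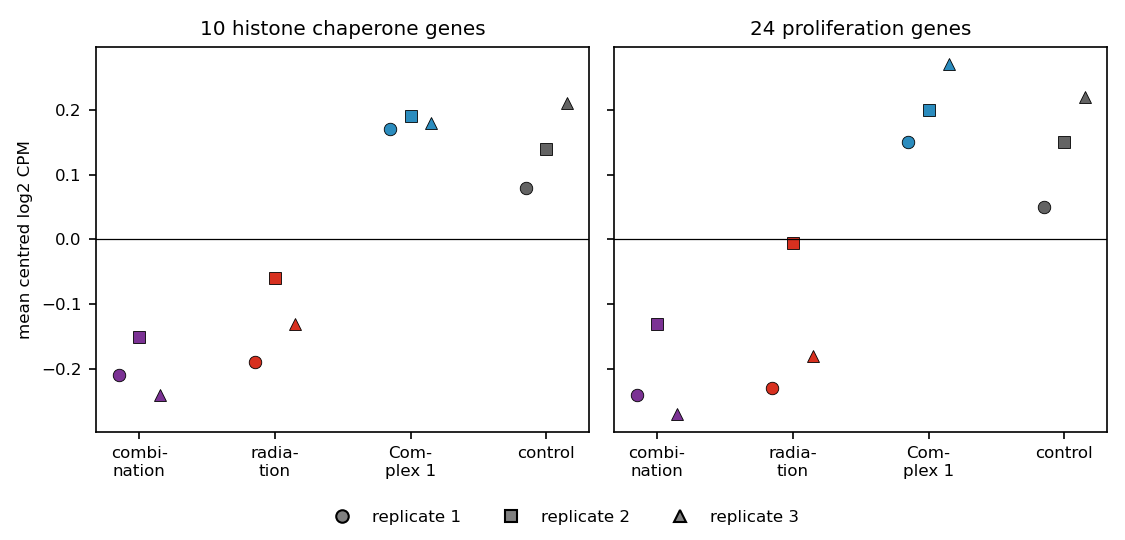
Mean centred log2 counts per mega count of the 10 histone chaperones and of 24 proliferation genes in each library, by group in the order combination, radiation, Complex 1 and control. In both panels the 6 irradiated libraries lie below the 6 unirradiated ones, and radiation replicate 2 is the highest of the irradiated ones.

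The genes whose pattern over the 12 libraries was most like that of a member were found by the root mean square difference of centred log2 counts per mega count. For Hirip3 these were Incenp (0.0712), Kif23 (0.073), Fignl1 (0.0791), Rrm2 (0.0836) and Tmem97 (0.0846), against a median of 0.342 over all other tested genes. The closest chaperone to Hirip3 was Asf1b at 0.0859, and Hira, at 0.261, was among the farthest. For Anp32e they were Hmgb2 (0.0517), Atad2 (0.0758), Kif14 (0.0794), Pimreg (0.0801) and H2az2 (0.0802), against a median of 0.329. H2az2 is the second H2A.Z gene. These are descriptions over libraries that share the group differences.

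Some counts may hold reads of a neighbour, or lack reads that are shared with one. The strand setting is not given, and reads of overlapping or antisense genes cannot be told apart. In mm39, Anp32e (ENSMUSG00000015749) lies on chromosome 3 at 95836558 to 95854702 and Hirip3 (ENSMUSG00000042606) on chromosome 7 at 126461144 to 126464549, both on the plus strand. Chaf1a overlaps Ubxn6 and Asf1a overlaps Mcm9 on the opposite strand, and 50.9% of the 31-base sequences of Chaf1a and 44.9% of those of Asf1a also occur in that neighbour. On the log2 scale, Ubxn6 differed by 0.01 ± 0.07 and Mcm9 by 0.05 ± 0.10 in the combination against Complex 1. In radiation against control they differed by 0.21 ± 0.07 and 0.22 ± 0.10. Hirip3 shares 2.7% with the antisense gene Ino80e, whose log2 differences in those contrasts were -0.09 ± 0.07 and -0.0065 ± 0.07. Anp32e shares 0% but overlaps the same-strand entry Gm43375, which differed by -0.23 ± 0.24 and -0.02 ± 0.24. The part of neighbour reads in the chaperone values was not tested. Hira shares 43.1% with the same-strand entry Gm28539, listed at 0 in all libraries, which leaves the level of Hira uncertain. Outside the set, 42.3% of the sequence of H2az1, 31.3% of that of Set and 57% of that of Ruvbl1 also occur in other loci, so their counts are uncertain too. Among others, the same holds for H3f3a (30%), Nap1l1 (25.1%), Supt16 (20%), Rrm2 (12.8%) and Ruvbl2 (12.3%).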

How the data were processed

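Total RNA of CT26 tumours was made into libraries with the NEB Next Ultra RNA kit, per the labels. The submitters' processing notes name STAR 2.5.3a, HTSeq 2.0.1 and DESeq2 with build mm39; the strand setting is not given in the sources used here. The deposited table holds raw counts per gene and library. It also holds FPKM by the authors, which were recomputed from the counts within 0.005, and the authors' exonic gene length in bases. Entries without a symbol held 0.0579% to 0.0706% of a library's counts.

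The 13668 genes that reached 1 FPKM in 3 or more of the 12 libraries were kept, and their counts were scaled by TMM and fitted in 1 model of group means with edgeR 4.0.16 (R 4.3.3), using the quasi-likelihood test. P-values were Benjamini-Hochberg adjusted over all tested genes, with a threshold of 0.05. "Rose" and "fell" are used of genes that passed, and errors of log2 changes are SE. The alternatives were DESeq2 1.42.0, median-ratio scaling, library totals only, removal of a trend on gene length, no filter, only the groups compared, the replicate number as a block, and leaving out each library in turn. The code was tested on simulated data. Depth limits precision most for Asf1a, with 4648 counts over the 12 libraries, and least for Ssrp1, with 80397.

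The members and the gene lists were chosen with earlier results of these data known. All 10 members are named, with up to 3 genes per direction with the smallest p from each list, the genes carried by or partnered with a member, and for Hirip3 and Anp32e the 5 genes most like them. The 4 promoter motifs were searched in RefSeq windows of GRCm38.p6, and shared 31-base sequences were counted in transcripts of that build. All coordinates outside the promoter windows are mm39.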

Additional observations from a re-analysis of the deposited data

How the results depend on the processing

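All 10 members stayed below 0 in the radiation contrasts under each scaling tried (median ratios, library totals, gene length trend). The number of members past the threshold in the Complex 1 contrasts was 0 under every alternative run.

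Counts of all genes past the threshold moved most in the small contrasts. For Complex 1 against control they were 326 with DESeq2, 803 with no filter and 45 with only the groups compared, against 111 in edgeR. For the combination against radiation they were 185 with DESeq2 and 529 with no filter, against 89. For the effect of Complex 1 they were 667 with DESeq2 and 1262 with no filter, against 379. For the interaction they were 6 with DESeq2 and 163 with no filter, against 0, and for the combination against Complex 1 2285 with no filter, against 1364. The cause was not tested.

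Library totals alone shifted the split of all genes to 1157 higher and 587 lower for radiation against control, against 1010 and 801, and to 1932 and 903 for the combination against control, against 1620 and 1373.

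Leaving out 1 library at a time gave these ranges of genes called: 4 to 236 for Complex 1 against control, 25 to 100 for the combination against radiation, 198 to 607 for the effect of Complex 1, 865 to 2014 for radiation against control, 582 to 1884 for the combination against Complex 1, 2820 to 3804 for the effect of radiation and 2076 to 3176 for the combination against control. The count of 4 came without control replicate 2, that of 25 and that of 865 without radiation replicate 1, and that of 582 without Complex 1 replicate 2. Members called were 0 in Complex 1 against control, the combination against radiation and the effect of Complex 1 in every such fit.

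Some small log2 changes turned sign. With the gene length trend removed these were Anp32e in Complex 1 against control (-0.0056), Chaf1a (0.00026) and Hira (0.01) in the combination against radiation, and Nasp in the effect of Complex 1 (0.004). With library totals they were Hirip3 (0.01) and Hira (0.01) in the combination against radiation and Nasp in the effect of Complex 1 (0.0066). With no filter they were Anp32e in Complex 1 against control (-0.0073), Hjurp in the combination against radiation (-0.0014) and Chaf1b in the effect of Complex 1 (-0.0039). With 1 library left out, signs turned within these ranges. In Complex 1 against control they were -0.03 to 0.04 for Anp32e and -0.02 to 0.11 for Hjurp. In the combination against radiation they were -0.06 to 0.04 for Hirip3, -0.06 to 0.00035 for Chaf1a, -0.14 to 0.02 for Asf1b, -0.03 to 0.04 for Hjurp and -0.08 to 0.07 for Hira. In the effect of Complex 1 they were -0.03 to 0.05 for Chaf1b, -0.0071 to 0.08 for Asf1b, -0.07 to 0.03 for Nasp and -0.0058 to 0.06 for Hjurp. In the interaction they were -0.15 to 0.03 for Asf1a, -0.10 to 0.02 for Hjurp and -0.07 to 0.03 for Ssrp1. Among the radiation contrasts it was Chaf1b in radiation against control, from -0.15 to 0.01, above 0 without control replicate 3.

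The replicate numbers gave no sign of pairing. Same-numbered libraries correlated at -0.204 to 0.164 in their deviations from the group means, over 0.1 in 4 of 18 pairs. Differently numbered libraries of different groups correlated at -0.242 to 0.177. With 3 libraries per group these values cannot exclude a shared batch. With the replicate number as a block, 87, 78, 364 and 0 genes were called for Complex 1 against control, the combination against radiation, the effect of Complex 1 and the interaction, and 1894, 1520, 3646 and 3072 for radiation against control, the combination against Complex 1, the effect of radiation and the combination against control. Members called under the block were 0 in each Complex 1 contrast.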
